A study of Mus musculus with 28 samples.

Results

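The 10 genes described here, Asns, Psat1, Phgdh, Atf3, Atf5, Ddit3, Trib3, Chac1, Sesn2 and Fgf21, are textbook targets of ATF4, the transcription factor of the integrated stress response. They were chosen by name, by mapping the transcript accession of each array probe to a gene symbol, and 14 of the 41174 probes on the array belonged to them. All 10 were among the 20303 features tested, with 1 probe, the brightest that passed the filter, standing for each gene.

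In the integrated stress response, kinases that sense amino acid shortage, endoplasmic reticulum stress, haem shortage or double-stranded RNA phosphorylate the initiation factor eIF2alpha, which lowers general protein synthesis while ATF4 mRNA is translated more. ATF4, often paired with a C/EBP factor, then switches on genes that make, import and charge amino acids, together with regulators that prolong or end the response. In the liver the same programme controls Fgf21, a hormone that hepatocytes release in fasting and in amino acid or protein restriction.

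The arrays measured liver RNA of mice with no functional Fah, the gene of fumarylacetoacetate hydrolase, the last enzyme of tyrosine breakdown, the loss of which is a model of hereditary tyrosinaemia. NTBC (nitisinone) blocks an earlier enzyme of that pathway and so keeps the toxic end products of tyrosine from forming. All groups carried the Fah deletion, per the labels, and there was no wild-type group among the arrays used here. The question named by the design is how the liver responds when NTBC is lowered or withdrawn, and what loss of p53 (Trp53) or of its target p21 (Cdkn1a) changes in that response.

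Each of 7 groups held 4 arrays. Fah-/- p53-/- livers were taken after no, reduced and full NTBC, Fah-/- p21-/- livers after no NTBC, and Fah-/- livers after no, reduced and full NTBC. Full NTBC was 7.5 mg/L in the drinking water. The reduced dose is 25% of full in the labels of the samples and 2.5% for 3 months in the text on treatment, so it is called reduced here. The labels name neither the time without NTBC nor the animals' ages, and do not say whether the 4 arrays of a group came from separate animals. P-values therefore measure the spread between these samples, which may be technical.

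A level below is log2 of the background-subtracted probe signal minus log2 of the 75th percentile of that signal on the same array, so 0 is the 75th percentile, and levels of different probes are not set against each other. That percentile ranged from 252 to 578 signal units over the 28 arrays, and 54.8 to 68.5% of probes were well above background. Of the 10 genes, 9 were well above background on all 28 arrays. Psat1 was so on 22, with 2 of the 4 arrays of Fah-/- p53-/- livers and 0 of the 4 of Fah-/- livers on full NTBC. A change is called when limma's adjusted p over all 20303 features is under 0.05, and ± beside a change is its standard error.

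Several differences between groups go with the dose or the genotype. The doses were scanned in different scanner runs, so dose and scan cannot be told apart, and at full and reduced NTBC each genotype sat on a slide of its own. The 4 arrays of Fah-/- p53-/- livers without NTBC carried female transcript patterns, as did replicates 1 and 2 of the p21-/- group, and the other arrays male ones. The array farthest from its group was replicate 1 of Fah-/- p53-/- without NTBC, followed by replicates 1 and 2 of Fah-/- p21-/-. One Trp53 probe was lower in all 3 p53-/- groups by 1.38 to 2.15 on the log2 scale (adjusted p over probes at most 3.59e-06, limma) and the brighter one was not. The Cdkn1a probe had a mean level of 3.24 in p21-/- livers and 4.28 in Fah-/- livers without NTBC, a difference that was not called, so it does not check that label. The Fah probe was well above background on all 28 arrays and changed without NTBC relative to full by -2.46 in Fah-/- p53-/- and -1.91 in Fah-/- livers, so it checks nothing about the deletion either; where these probes lie relative to the deletions was not analysed here. The 7 hepatocyte markers averaged 5.71 without, 6.84 with reduced and 7.32 with full NTBC in Fah-/- p53-/- livers, and 5.86, 6.80 and 7.52 in Fah-/- livers, while the 7 macrophage markers averaged 3.21, 2.03 and 1.81, and 3.03, 1.50 and 1.60. In bulk liver RNA, fewer cells of a type and less RNA per cell cannot be told apart.

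Promoter sequences of all 10 genes were in the RefSeq table (build GRCm38.p6), as 12 promoters that each run from 250 bases before to 50 bases after the transcript start. The letters TGATGNAA, a core of the composite site of ATF4 and a C/EBP factor, were searched on both strands and occur in the promoters of 5 genes, Asns, Atf3, Chac1, Fgf21 and Trib3, against 1304 of 32851 promoters in the table (3.97%). The letters TGACNNNGC, a core of the antioxidant response element, occur in Asns, Phgdh and Sesn2, against 4071 of 32851 (12.39%). In these letters the motifs do not overlap in any of the 10 genes. The stretches before the start are shown for the 4 genes with the composite letters there, since Atf3 and Fgf21 rose, Chac1 fell in Fah-/- livers and Asns differed between the genotypes on NTBC. Psat1, whose promoter holds neither motif and whose rise on withdrawal was the largest of the 10, is shown for comparison. For Trib3 the match lies after the start, at bases 14 to 21, and 30 bases around it are shown. Capitals mark both motifs, and positions count the first transcribed base as 0.
Asns, bases -250 to -1, chr6:7693210-7693459, minus strand: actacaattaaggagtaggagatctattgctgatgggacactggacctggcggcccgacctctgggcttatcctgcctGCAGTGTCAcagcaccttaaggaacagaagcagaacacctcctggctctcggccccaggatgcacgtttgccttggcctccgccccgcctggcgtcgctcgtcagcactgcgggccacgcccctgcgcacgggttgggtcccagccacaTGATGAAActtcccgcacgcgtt
Atf3, bases -250 to -1, chr1:191183334-191183583, minus strand: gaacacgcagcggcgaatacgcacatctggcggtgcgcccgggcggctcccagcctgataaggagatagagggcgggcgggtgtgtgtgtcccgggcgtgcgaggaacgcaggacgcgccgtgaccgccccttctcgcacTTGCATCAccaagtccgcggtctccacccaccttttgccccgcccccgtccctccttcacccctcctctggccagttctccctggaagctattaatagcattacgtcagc
Chac1, bases -250 to -1, chr2:119350992-119351241, plus strand: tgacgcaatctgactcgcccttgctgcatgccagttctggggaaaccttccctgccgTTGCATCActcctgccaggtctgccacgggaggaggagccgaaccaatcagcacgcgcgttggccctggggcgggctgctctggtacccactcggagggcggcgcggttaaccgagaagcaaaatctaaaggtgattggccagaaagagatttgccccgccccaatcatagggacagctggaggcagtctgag
Fgf21, bases -250 to -1, chr7:45615491-45615740, minus strand: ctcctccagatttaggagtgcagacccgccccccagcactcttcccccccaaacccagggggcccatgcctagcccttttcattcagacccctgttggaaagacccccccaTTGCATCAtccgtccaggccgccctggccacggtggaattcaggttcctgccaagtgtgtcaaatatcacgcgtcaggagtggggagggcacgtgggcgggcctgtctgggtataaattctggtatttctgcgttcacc
Psat1, bases -250 to -1, chr19:15925060-15925309, minus strand: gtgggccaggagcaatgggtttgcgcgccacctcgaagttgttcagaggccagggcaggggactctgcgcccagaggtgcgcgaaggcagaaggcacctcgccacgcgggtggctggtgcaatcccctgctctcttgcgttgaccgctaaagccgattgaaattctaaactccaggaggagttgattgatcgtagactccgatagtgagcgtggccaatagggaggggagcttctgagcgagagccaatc
Trib3, bases 3 to 32, chr2:152344028-152344057, minus strand: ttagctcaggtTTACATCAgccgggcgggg

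In Asns, TGATGAAA stands at bases -23 to -16 in the direction of the gene, and GCAGTGTCA, the antioxidant core read from the opposite strand, at -172 to -164. Atf3, Chac1 and Fgf21 carry the same 8 letters, TTGCATCA, which are the composite core read from the opposite strand, at -110 to -103, -193 to -186 and -139 to -132. Trib3 has TTACATCA, also on the opposite strand. These are matches of letters, and no binding was measured.

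**Figure D1:**
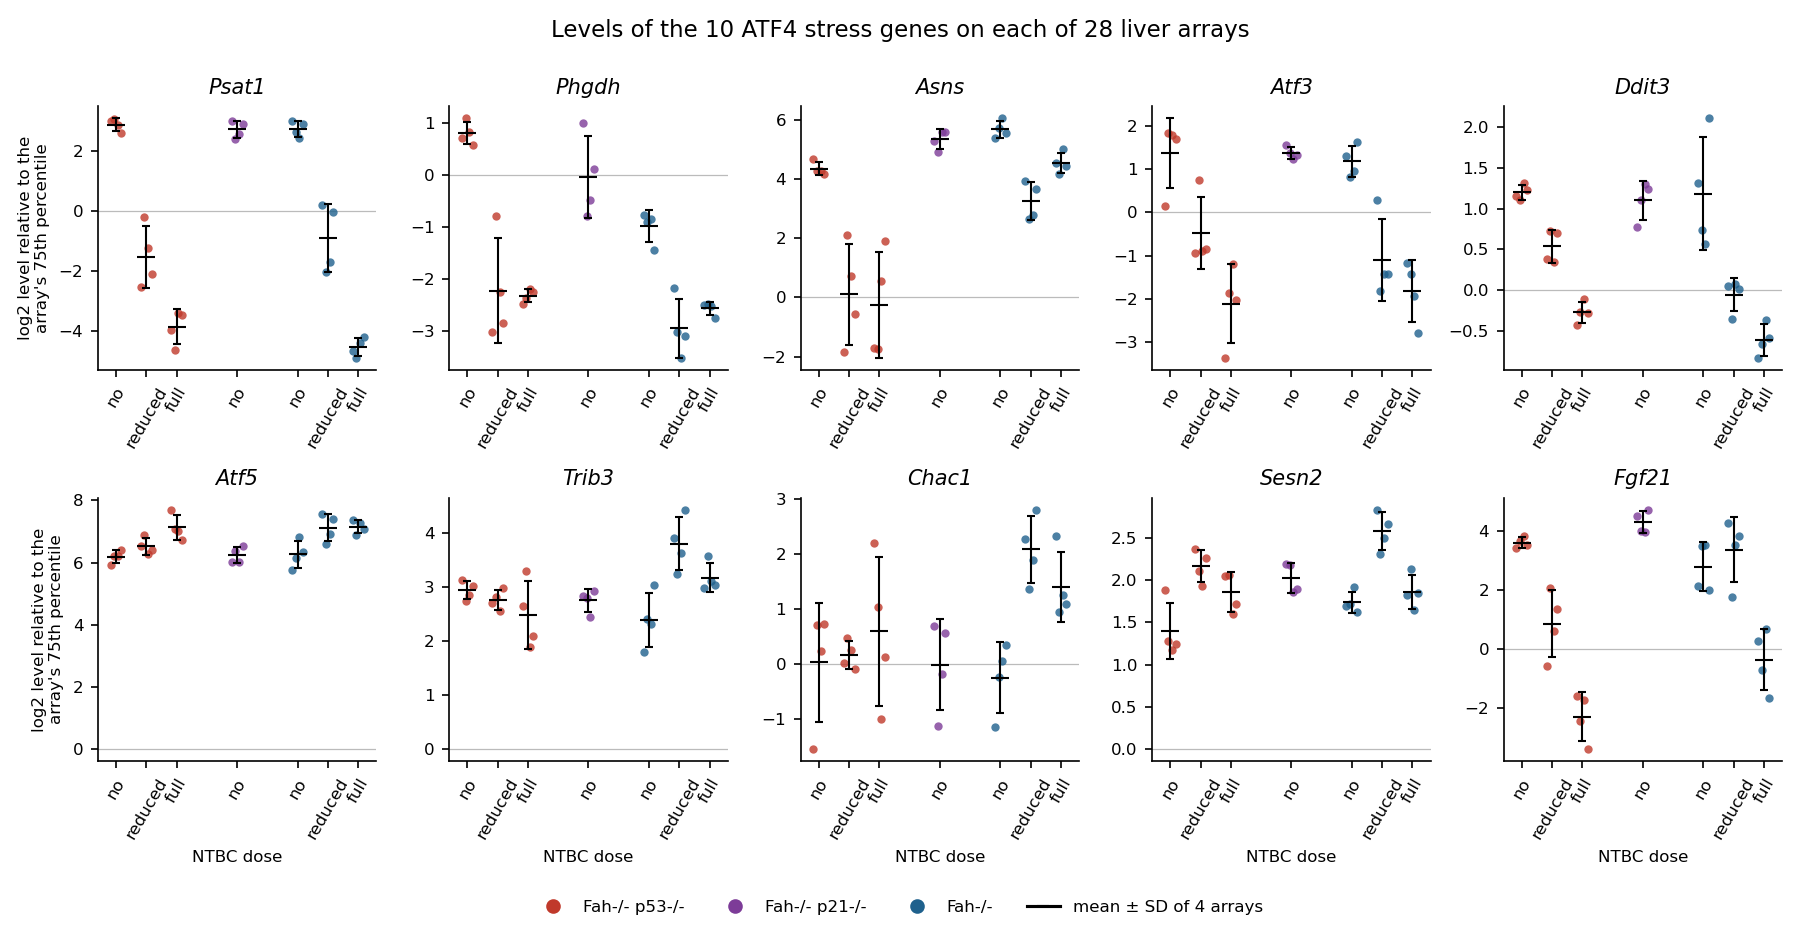
Level of each of the 10 genes on each of the 28 arrays, as log2 relative to the array's 75th percentile; each point is 1 array, and the bars give the mean ± SD of the 4 arrays of a group. Within each panel the Fah-/- p53-/- groups stand left, the Fah-/- p21-/- group in the middle and the Fah-/- groups right, with no, reduced and full NTBC in that order; Psat1 lies between 2.40 and 3.06 on all 12 arrays without NTBC and at -3.37 or lower on the 8 arrays of full NTBC.

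On withdrawal of NTBC the share of the 10 genes called was near that of all features, and the 10 did not move together. Of the 10, 6 rose and 2 fell without NTBC relative to full NTBC in Fah-/- p53-/- livers, where 69.7% of all features were called, 29.6% higher and 40.1% lower. In Fah-/- livers 5 rose and 3 fell, where 70.9% were called, 29.3% higher and 41.6% lower. Both directions together, 8 of the 10 were called in each genotype. The median change of the 10 was 2.30 in Fah-/- p53-/- livers and 1.36 in Fah-/- livers on the log2 scale, beside -0.14 and -0.17 over all features. Called higher in both genotypes were Atf3, Ddit3, Psat1, Phgdh and Fgf21, and called lower in both was Atf5. The falls in Fah-/- p53-/- livers, of Atf5 and Sesn2, lost their calls with normexp. So did those of Atf5 and Trib3 in Fah-/- livers. With the main scaling the hepatocyte markers fell in the same comparisons, 7 of 7 in each genotype. Of the 7 macrophage markers 6 rose in Fah-/- p53-/- livers and 7 of 7 in Fah-/- livers. Of the 6 lymphocyte markers 5 fell in Fah-/- p53-/- and 3 in Fah-/- livers, with means of -4.16 without against -2.36 with full NTBC and of -3.34 against -2.41. Of the 5 cholangiocyte markers 3 and 4 rose, with means of 0.37 against -1.08 and of 0.04 against -0.86. Other scalings are not given for these marker counts. Quantile normalization shrank the fall of Atf5 to -0.04 in Fah-/- p53-/- and -0.02 in Fah-/- livers. Whether the falls of the hepatocyte markers rest on the scaling too is therefore not shown here. All 4 Fah-/- p53-/- arrays without NTBC carried the female pattern and the full-dose arrays the male one, so dose and sex cannot be told apart in that comparison. The part of these cell markers in the changes of the 10 genes was not tested.

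Reduced against full NTBC gave fewer calls, among the 10 genes and among all features. In Fah-/- p53-/- livers 4 of the 10 rose and 1 fell, with 39.8% of all features called, 20.3% higher and 19.5% lower. In Fah-/- livers 4 rose and 0 fell, with 39.8% called, 17.4% higher and 22.3% lower. The medians of the 10 were 0.33 in Fah-/- p53-/- livers and 0.66 in Fah-/- livers, beside 0.02 and -0.03 over all features. Ddit3, Psat1 and Fgf21 were called higher in both genotypes. Without NTBC relative to the reduced dose, 6 rose and 1 fell in Fah-/- p53-/- livers, with 61.3% of all features called, 23.2% higher and 38.1% lower. There too the arrays without NTBC carried the female pattern and the reduced-dose ones the male one, so dose and sex cannot be told apart. In Fah-/- livers 5 rose and 4 fell, with 64.3% called, 26.1% higher and 38.1% lower. Asns, Atf3, Ddit3, Psat1 and Phgdh were called higher in both genotypes at that step and Sesn2 was called lower in both. The comparisons within a genotype share their groups, whereas those of the 2 genotypes share no array.

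Psat1, the phosphoserine aminotransferase that carries out the second step of serine synthesis, had the largest rise of the 10 on withdrawal. Its levels in Fah-/- p53-/- livers were 3.00, 3.06, 2.84 and 2.58 without NTBC, -2.54, -0.21, -1.22 and -2.09 with reduced NTBC, and -3.94, -4.63, -3.37 and -3.45 with full NTBC. In Fah-/- livers they were 2.99, 2.61, 2.42 and 2.87 without NTBC, 0.19, -2.02, -1.71 and -0.04 with reduced NTBC, and -4.66, -4.87, -4.37 and -4.19 with full NTBC. In both genotypes every array without NTBC was above every array on the reduced dose, and every array on the reduced dose above every array on the full one. Without NTBC the signal was at least 125-fold that on full NTBC in Fah-/- livers, a lower bound because the gene was not well above background there on full NTBC (adjusted p = 1.46e-12, limma). In Fah-/- p53-/- livers the change was 6.72 ± 0.44, or 105-fold, with 2 of the 4 full-dose arrays measured above background. Already at the reduced dose Psat1 was higher by 2.33 ± 0.44 (adjusted p = 0.000198) in Fah-/- p53-/- livers, and at least 10.2-fold higher (adjusted p = 1.03e-06) in Fah-/- livers. With the normexp background correction the change at the reduced dose was 0.11 in Fah-/- p53-/- livers (adjusted p = 0.819) and 1.43 in Fah-/- livers.

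Phgdh, phosphoglycerate dehydrogenase, the first enzyme of the same serine pathway, rose without NTBC and did not at the reduced dose. Its levels were 0.72, 1.10, 0.83 and 0.58 without, -3.01, -0.78, -2.25 and -2.84 with reduced, and -2.47, -2.36, -2.18 and -2.25 with full NTBC in Fah-/- p53-/- livers. The Fah-/- livers had -0.76, -0.89, -0.84 and -1.44 without, -2.16, -3.01, -3.51 and -3.09 with reduced, and -2.50, -2.48, -2.52 and -2.76 with full NTBC. The arrays without NTBC stood above all others of their genotype, and the reduced and full groups overlapped in both genotypes. The change without NTBC relative to full was 3.12 ± 0.37 in Fah-/- p53-/- livers (adjusted p = 9.26e-08) and 1.58 ± 0.37 in Fah-/- livers (adjusted p = 0.000628). At the reduced dose it was 0.09 ± 0.37 (adjusted p = 0.863) and -0.38 ± 0.37 (adjusted p = 0.448). Of the 3 Phgdh probes, the dimmest, above background on 15 arrays, was higher by 1.42 at the reduced dose in Fah-/- p53-/- livers (adjusted p over probes = 0.00929), which the probe used here was not.

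Asns, asparagine synthetase, which turns aspartate into asparagine, had the largest differences between the genotypes of the 10 where NTBC was given. In Fah-/- p53-/- livers its levels were 4.69, 4.28, 4.28 and 4.17 without NTBC, -1.85, 2.10, 0.71 and -0.55 with reduced NTBC, and -1.70, -1.74, 0.57 and 1.90 with full NTBC. In Fah-/- livers they were 5.37, 5.73, 6.06 and 5.56 without, 3.93, 2.64, 2.80 and 3.65 with reduced, and 4.55, 4.18, 5.01 and 4.44 with full NTBC. The Fah-/- p53-/- livers on NTBC were low and scattered, the ones without NTBC were high and close together, and in Fah-/- livers the reduced group lay below the full group and the group without NTBC above it, with no overlap. Withdrawal raised Asns by 4.60 ± 0.66, or 24.2-fold, in Fah-/- p53-/- livers (adjusted p = 1.64e-06), and the change of 1.14 ± 0.66 in Fah-/- livers was not called (adjusted p = 0.13). That change was called when the 2 groups were fitted alone, with quantile normalization, with normexp and in the deposited value table, with changes of 1.01 to 1.78 over all alternatives. The lower level at the reduced dose in Fah-/- livers, -1.29 ± 0.66, was not called either (adjusted p = 0.128). With the 2 groups fitted alone this fall was called (-1.29, adjusted p = 0.0117, limma). Relative to the reduced dose, Asns rose without NTBC by 4.25 ± 0.66 in Fah-/- p53-/- livers (adjusted p = 7.96e-06) and by 2.43 ± 0.66 in Fah-/- livers (adjusted p = 0.00293).

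The 2 transcription factors of the ATF4 cascade that rose were Atf3, a stress-induced repressor and activator of the ATF/CREB family, and Ddit3, which encodes CHOP, the C/EBP-related factor that promotes cell death in lasting stress. Ddit3 had levels of 1.16, 1.10, 1.31 and 1.23 without, 0.38, 0.72, 0.34 and 0.70 with reduced, and -0.43, -0.27, -0.11 and -0.28 with full NTBC in Fah-/- p53-/- livers. The Fah-/- values were 1.31, 0.74, 0.57 and 2.11 without, 0.05, -0.36, 0.07 and 0.01 with reduced, and -0.83, -0.66, -0.36 and -0.58 with full NTBC. The 3 doses formed 3 separate steps in Fah-/- p53-/- livers, and in Fah-/- livers the lowest reduced and the highest full array were level at -0.36. The rise without NTBC relative to full was 1.47 ± 0.22 (adjusted p = 1.97e-06) in Fah-/- p53-/- livers and 1.79 ± 0.22 (adjusted p = 1.07e-07) in Fah-/- livers. At the reduced dose it was 0.81 ± 0.22 (adjusted p = 0.00459) in Fah-/- p53-/- livers. The corresponding 0.55 ± 0.22 in Fah-/- livers (adjusted p = 0.0440) lost its call with normexp, with quantile normalization, in the deposited table, with no filter on dim probes and with the slide as a random block, and in 6 of 8 fits that left out 1 array.

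Atf3 averaged 1.37 ± 0.81 without, -0.48 ± 0.83 with reduced and -2.11 ± 0.91 with full NTBC in Fah-/- p53-/- livers, and 1.18 ± 0.37, -1.09 ± 0.95 and -1.83 ± 0.72 in Fah-/- livers (SD, n = 4 each). All 8 arrays without NTBC were above all 8 arrays on full NTBC. The reduced arrays were above the full ones in Fah-/- p53-/- livers and overlapped with them in Fah-/- livers. Withdrawal raised it by 3.48 ± 0.49 in Fah-/- p53-/- livers (adjusted p = 1.18e-06) and by 3.01 ± 0.49 in Fah-/- livers (adjusted p = 9.13e-06). The rise at the reduced dose was called in Fah-/- p53-/- livers, at 1.63 ± 0.49 (adjusted p = 0.0109), and was not in Fah-/- livers, at 0.73 ± 0.49 (adjusted p = 0.247). Of the Fah-/- p53-/- reduced arrays, 1 stood far above the others, replicate 2 at 0.76, and without it the change was 1.21 (adjusted p = 0.0582). The call was also lost with normexp and without replicate 1 of the full-dose group.

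Atf5, a factor of the same family with an upstream-frame control like that of ATF4 and a role in hepatocytes, was lower without NTBC. It averaged 6.19 ± 0.20, 6.52 ± 0.27 and 7.13 ± 0.41 with no, reduced and full NTBC in Fah-/- p53-/- livers, and 6.26 ± 0.44, 7.12 ± 0.44 and 7.15 ± 0.21 in Fah-/- livers (SD, n = 4 each). The change without NTBC relative to full was -0.94 ± 0.23 (adjusted p = 0.000858) and -0.89 ± 0.23 (adjusted p = 0.00133). It rested on the scaling: quantile normalization gave -0.04 and -0.02, the deposited table -0.08 and -0.05, and normexp -0.49 and -0.69, and none of these 6 values was called. At the reduced dose in Fah-/- p53-/- livers the change of -0.61 (adjusted p = 0.0372) turned to 0.15 with normexp, and the groups overlapped.

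Trib3, a pseudokinase that ATF4 and CHOP induce and that restrains both, was called lower without NTBC in Fah-/- livers only, with the probe used here. The difference between the 2 genotypes' changes was called for withdrawal, at 1.25, and not for the reduced dose. The call was lost with normexp and in most fits that left out 1 array, and sex cannot be told apart from this difference. Its levels were 3.13, 2.75, 2.86 and 3.02 without, 2.70, 2.81, 2.55 and 2.97 with reduced, and 2.64, 3.30, 1.88 and 2.09 with full NTBC in Fah-/- p53-/- livers. Fah-/- livers had 1.79, 2.41, 2.32 and 3.03 without, 3.90, 3.24, 3.64 and 4.43 with reduced, and 2.97, 3.57, 3.12 and 3.04 with full NTBC. The reduced Fah-/- group was the highest of the 7 groups, and none of its arrays fell within the range of the Fah-/- group without NTBC. Without NTBC relative to the reduced dose Trib3 changed by 0.18 ± 0.27 in Fah-/- p53-/- livers (adjusted p = 0.578) and by -1.41 ± 0.27 in Fah-/- livers (adjusted p = 8.62e-05). The change of 0.63 ± 0.27 at the reduced dose in Fah-/- livers was not called with this probe (adjusted p = 0.0662) and was with quantile normalization and in the deposited table. The second Trib3 probe was called at that dose, with 0.67 in Fah-/- p53-/- livers (adjusted p over probes = 0.0402) and 0.79 in Fah-/- livers (adjusted p over probes = 0.0169). The fall without NTBC relative to full in Fah-/- livers, -0.79 ± 0.27 (adjusted p = 0.0122), was lost with normexp, quantile normalization and the deposited table, and without replicate 1 of the Fah-/- group without NTBC.

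Chac1, an enzyme that breaks down glutathione in the stress response, was highest in Fah-/- livers on NTBC. The Fah-/- p53-/- arrays had -1.55, 0.72, 0.23 and 0.73 without, 0.02, 0.48, 0.26 and -0.09 with reduced, and 2.22, 1.03, -1.0 and 0.14 with full NTBC. The Fah-/- arrays had levels of -1.15, -0.24, 0.06 and 0.34 without, 2.29, 1.36, 1.90 and 2.82 with reduced, and 2.33, 0.94, 1.26 and 1.09 with full NTBC. In Fah-/- p53-/- livers the 3 doses overlapped, and in Fah-/- livers all arrays without NTBC lay below all arrays on either dose. The changes without NTBC in Fah-/- p53-/- livers were -0.14 ± 0.57 relative to the reduced dose and -0.56 ± 0.57 relative to full, neither called. The change without NTBC was -2.34 ± 0.57 relative to the reduced dose (adjusted p = 0.00104) and -1.65 ± 0.57 relative to full (adjusted p = 0.0124) in Fah-/- livers. The second of these was no longer called without replicate 1 of the full group (adjusted p = 0.0527) or replicate 1 of the group without NTBC (adjusted p = 0.0523).

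Sesn2, a leucine-sensing inhibitor of mTORC1 that p53 also activates, had its highest group means at the reduced dose. It averaged 1.39 ± 0.33 without, 2.16 ± 0.19 with reduced and 1.86 ± 0.23 with full NTBC in Fah-/- p53-/- livers, and 1.74 ± 0.12, 2.58 ± 0.22 and 1.86 ± 0.20 in Fah-/- livers (SD, n = 4 each). The reduced arrays of either genotype lay above all arrays without NTBC of the same genotype. Without NTBC relative to the reduced dose it changed by -0.77 ± 0.16 in Fah-/- p53-/- livers (adjusted p = 0.000175) and by -0.84 ± 0.16 in Fah-/- livers (adjusted p = 6.35e-05). Relative to full NTBC Sesn2 was called lower without NTBC in Fah-/- p53-/- livers only, by -0.46. By limma that call was lost with normexp (-0.20, adjusted p = 0.375) and with the groups fitted alone (adjusted p = 0.0637). Reduced against full NTBC gave 0.31 ± 0.16 in Fah-/- p53-/- livers (adjusted p = 0.120), where normexp, quantile normalization and the deposited table did call it, and 0.72 ± 0.16 in Fah-/- livers (adjusted p = 0.000823).

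Fgf21, the hormone, was higher on either lower dose than on full NTBC. Fah-/- p53-/- livers had 3.40, 3.66, 3.82 and 3.51 without, -0.59, 2.07, 0.60 and 1.36 with reduced, and -1.59, -2.44, -1.71 and -3.38 with full NTBC. Levels in Fah-/- livers were 2.13, 3.49, 3.50 and 2.01 without, 4.27, 1.77, 3.53 and 3.84 with reduced, and 0.28, -0.72, 0.67 and -1.65 with full NTBC. The 3 doses were apart in Fah-/- p53-/- livers, whereas in Fah-/- livers the groups without and with reduced NTBC overlapped and both were above the full group. The rise at the reduced dose was 3.14 ± 0.57 in Fah-/- p53-/- livers (adjusted p = 0.000153) and 3.71 ± 0.57, or 13.1-fold, in Fah-/- livers (adjusted p = 2.33e-05). The rise without NTBC relative to full was 5.88 ± 0.57, or 59.0-fold, in Fah-/- p53-/- livers (adjusted p = 3.65e-09) and 3.14 ± 0.57 in Fah-/- livers (adjusted p = 3.89e-05). Without NTBC relative to the reduced dose the change was 2.74 ± 0.57 (adjusted p = 0.000259) in Fah-/- p53-/- livers and -0.57 ± 0.57 (adjusted p = 0.393) in Fah-/- livers. The 2 Fgf21 probes gave the same calls.

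**Figure D2:**
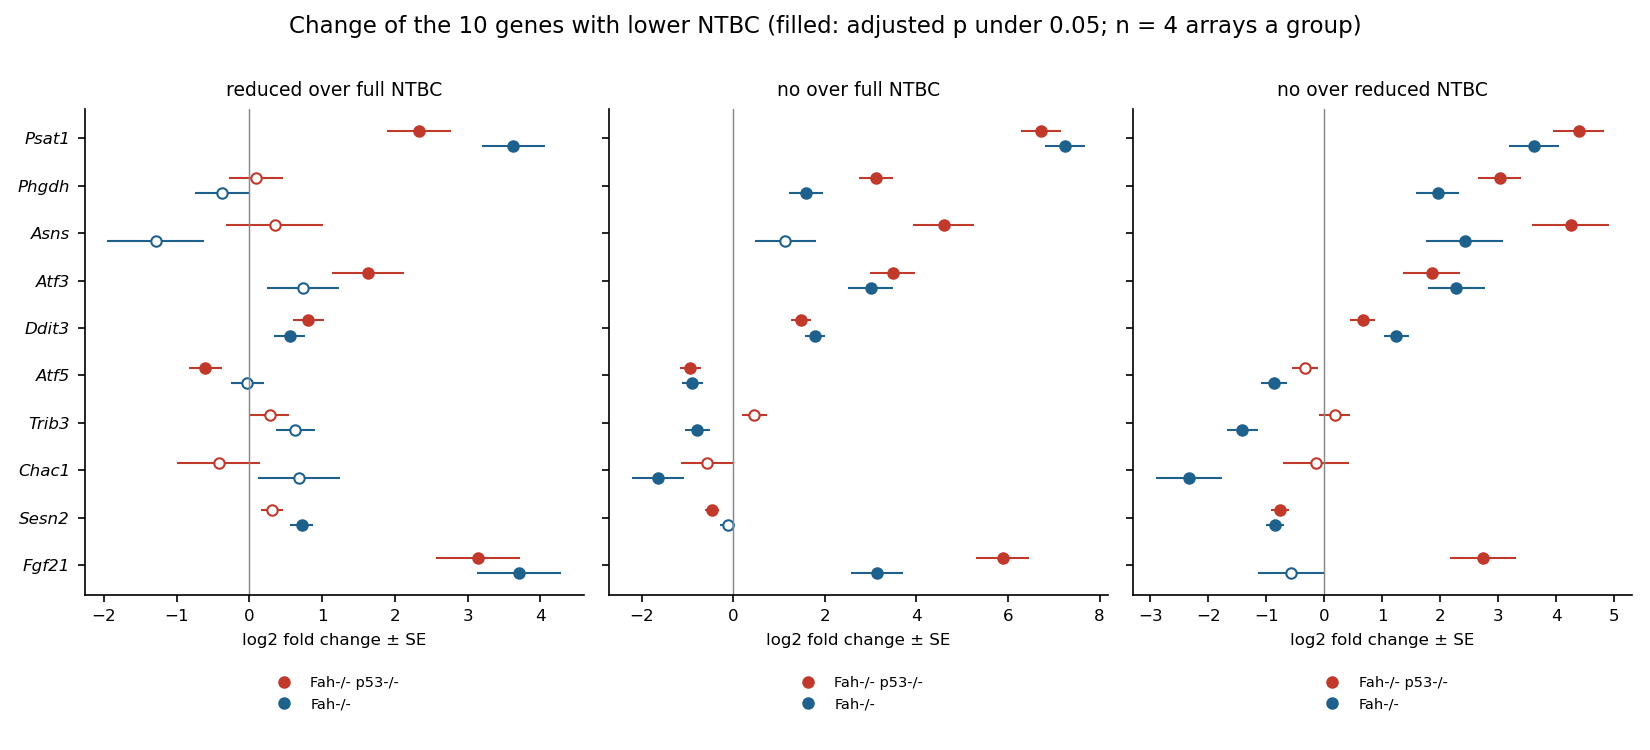
Change of each of the 10 genes on the log2 scale between doses, with the fitted value ± standard error on the horizontal axis; Fah-/- p53-/- livers stand above Fah-/- livers in each row, and filled points are called. Psat1 and Fgf21 lie right of 2 at the reduced dose in both genotypes, and without NTBC relative to full the lowest change of Fah-/- livers is -1.65 for Chac1. The fitted points of Psat1 in Fah-/- livers relative to full NTBC stand against signal not well above background, so only the bounds in the text are measured.

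Loss of p53 was compared at each dose. At no NTBC 1 of the 10 genes was higher and 0 lower in Fah-/- p53-/- than in Fah-/- livers, with 14.2% of all features called, 7.65% higher and 6.6% lower. At reduced NTBC 0 were higher and 4 lower, with 15.6% called, 9.85% higher and 5.8% lower. At full NTBC 0 were higher and 2 lower, with 13.9% called, 6.34% higher and 7.59% lower. The medians of the 10 were 0.17, -0.61 and -0.15, beside 0.01, 0.04 and 0.01 over all features. Without replicate 3 or 4 of the Fah-/- group the share called at no NTBC was 9.41 or 9.43%. Among these comparisons the reduced dose is the one in which the count stood farthest from the background. Genotype and slide coincide at reduced and full NTBC, so they cannot be told apart there.

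Asns was 8.89-fold lower in Fah-/- p53-/- than in Fah-/- livers at reduced NTBC (-3.15 ± 0.66, adjusted p = 0.00236) and 27.6-fold lower at full NTBC (-4.79 ± 0.66, adjusted p = 2.16e-05). The levels given above show no overlap between the genotypes at any of the 3 doses. At full NTBC the difference was between -5.50 and -3.93 under all alternatives tried. Without NTBC it was -1.33 ± 0.66 and was not called (adjusted p = 0.190), and on the 1 slide that held 2 arrays of each genotype it was -1.32. With the 2 groups without NTBC fitted alone it was called (-1.33, adjusted p = 0.00750, limma).

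Fgf21 was lower in Fah-/- p53-/- livers at reduced NTBC (-2.49 ± 0.57, adjusted p = 0.00461) and at full NTBC (-1.93 ± 0.57, adjusted p = 0.0260), with the groups overlapping at both doses. The second call was lost with normexp (-0.88), in the deposited table, with the 2 groups fitted alone, and without replicate 1 or 3 of the Fah-/- or replicate 2 or 4 of the Fah-/- p53-/- group. Trib3 and Chac1 were lower in Fah-/- p53-/- livers at the reduced dose, with differences of -1.04 ± 0.27 (adjusted p = 0.0100) and -1.92 ± 0.57 (adjusted p = 0.0231), and the groups of both genes did not overlap. Trib3 lost this call with normexp. The call on Chac1 was lost without replicate 1 or 4 of the Fah-/- or replicate 4 of the Fah-/- p53-/- group. At full NTBC the differences of Trib3 and Chac1 were -0.70 ± 0.27 and -0.81 ± 0.57, neither called.

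Without NTBC the gene called was Phgdh, higher by 1.79 ± 0.37 in Fah-/- p53-/- livers (adjusted p = 0.00257), with no overlap. On the 1 slide that held both groups, with 2 arrays of each, it was 1.54 (adjusted p = 0.0457), and with the slide as a random block 1.78 (adjusted p = 0.00309). These 2 groups also differ in the sex pattern of their transcripts, and sex and p53 loss cannot be told apart in them. Psat1, Atf3, Ddit3, Atf5 and Sesn2 were called in none of the 3 comparisons of p53 loss in the fit over all arrays. Psat1 stood at -0.62 ± 0.44 on reduced NTBC (adjusted p = 0.361). With the 2 groups fitted alone, Ddit3 was called higher on reduced NTBC (0.59, adjusted p = 0.0244, limma), and its groups did not overlap there. With the slide as a random block in limma, Sesn2 differed by -0.35 without NTBC (adjusted p = 0.138). It differed by -0.41 on reduced (adjusted p = 0.0924) and -0.004 on full NTBC (adjusted p = 0.991). With the replicate number as a block its difference on reduced NTBC was called (-0.41, adjusted p = 0.0416, limma). Its difference without NTBC was called, at -0.50, when replicate 1 of the Fah-/- p53-/- group was left out (adjusted p = 0.0185). On full NTBC Psat1 was well above background on 2 of the 4 Fah-/- p53-/- and 0 of the 4 Fah-/- arrays, so these data show neither presence nor absence of a difference there.

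**Figure D3:**
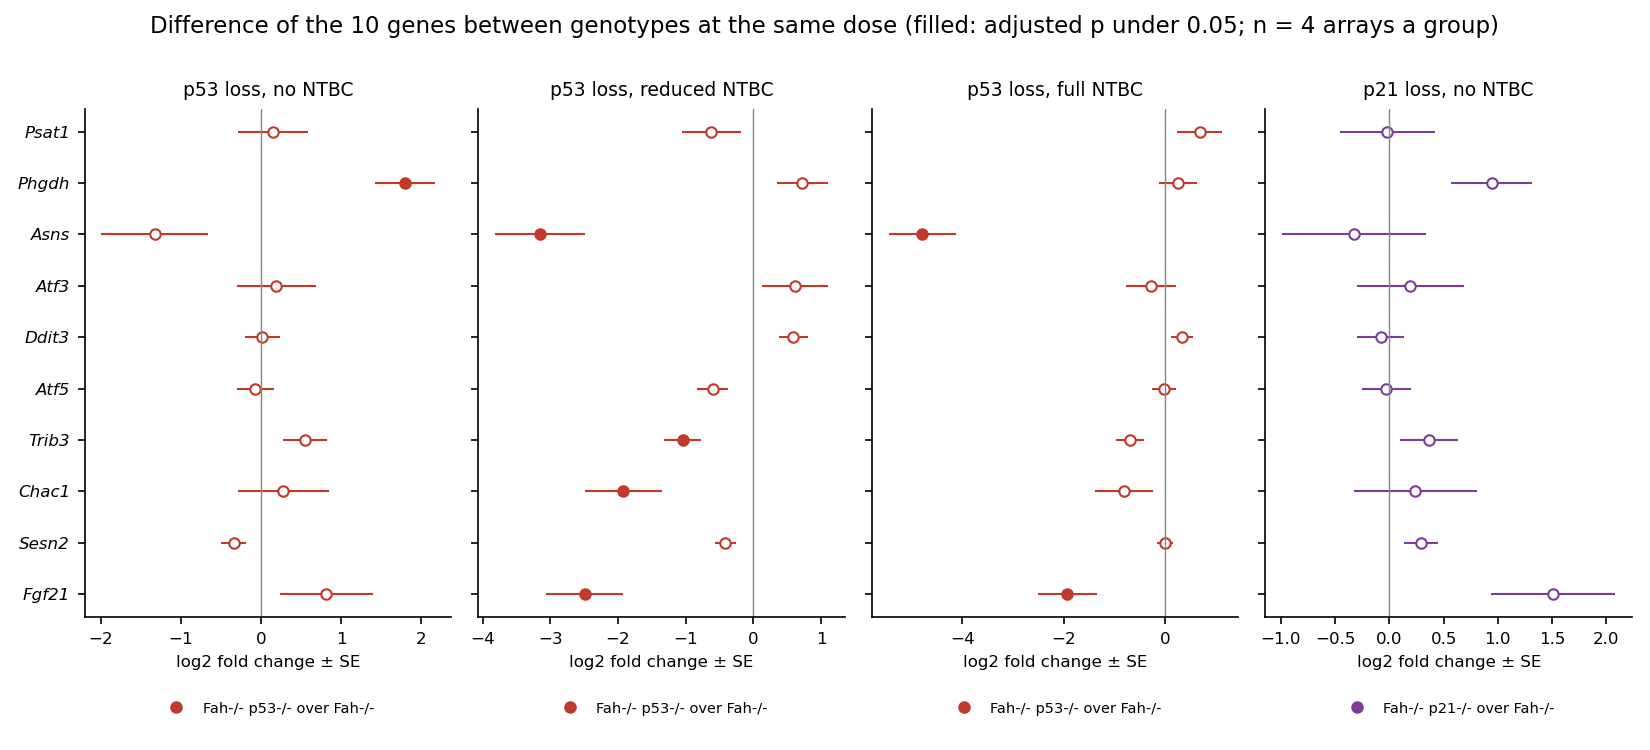
Difference of each of the 10 genes between genotypes at 1 dose, as the fitted log2 change ± standard error on the horizontal axis; the first 3 panels set Fah-/- p53-/- over Fah-/- livers at no, reduced and full NTBC, the fourth Fah-/- p21-/- over Fah-/- livers without NTBC, and filled points are called. Asns lies at -4.79 on full NTBC and at -3.15 on reduced NTBC, and no point is filled in the panel of p21 loss.

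Loss of p21 was measured without NTBC only. By limma 0 of the 10 genes were called, beside 7.53% of all features, 3.94% higher and 3.59% lower. Without replicate 2 or 4 of the Fah-/- group the share of all features called fell to 4.17 or 3.86%. An unadjusted p under 0.05 was reached by 2 of the 10, and no share of all features at that threshold is given here. The median of the 10 was 0.22, beside 0.02 over all features. Those 2 were Fgf21, with 4.51, 4.0, 3.94 and 4.72 in Fah-/- p21-/- livers against 2.13, 3.49, 3.50 and 2.01 in Fah-/- livers, and Phgdh, with 0.99, -0.78, -0.47 and 0.11 against -0.76, -0.89, -0.84 and -1.44. Every p21-/- array was above every Fah-/- array for Fgf21, and the Phgdh groups overlapped. The changes were 1.51 ± 0.57 (adjusted p = 0.112) for Fgf21, which the deposited table did call, and 0.94 ± 0.37 (adjusted p = 0.125) for Phgdh. Over the 2 male p21-/- arrays alone, which match the sex of the Fah-/- mice, they were 1.55 and 0.80. On the 1 slide with 2 arrays of each group they were 1.57 and 0.96. Psat1 had 2.98, 2.40, 2.57 and 2.87 in p21-/- livers, which put all 12 arrays without NTBC between 2.40 and 3.06.

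Set against p21 loss at the same dose, p53 loss gave 1 called gene of 10, a lower one, and 11% of all features called, 5.04% higher and 5.96% lower, with a median of 0.02 over the 10 beside 0.00 over all. The share of all features was 18.1% without replicate 1 and 6.71% without replicate 4 of the Fah-/- p53-/- group. That gene was Sesn2, with 1.88, 1.28, 1.17 and 1.24 in Fah-/- p53-/- livers and 2.19, 2.17, 1.85 and 1.90 in Fah-/- p21-/- livers. Only replicate 1 of the p53-/- group, the array farthest from its group over all features, reached into the p21-/- range. The difference was -0.63 ± 0.16 (adjusted p = 0.00948). It was -0.64 (adjusted p = 0.0156) with the 3 farthest arrays left out together and -0.79 (adjusted p = 0.0146) against the 2 female p21-/- arrays alone. It was not called with these 2 groups fitted alone or on the 1 slide that held 2 arrays of each (-0.60, adjusted p = 1.0).

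Whether the response to lower NTBC depended on p53 was tested as the difference between the 2 genotypes' changes; for withdrawal this difference and sex cannot be told apart, since of these groups only the Fah-/- p53-/- one without NTBC had the female pattern. For withdrawal 3 of the 10 genes were called, all with the higher change in Fah-/- p53-/- livers, while 9.11% of all features were called, 4.86% higher and 4.25% lower; the median of the 10 was 0.78, beside 0.01 over all. Asns changed by 4.60 in Fah-/- p53-/- and 1.14 in Fah-/- livers, a difference of 3.46 ± 0.94 (adjusted p = 0.0216). Fgf21 changed by 5.88 and 3.14, a difference of 2.75 ± 0.81 (adjusted p = 0.0348), and Trib3 by 0.46 and -0.79, a difference of 1.25 ± 0.38 (adjusted p = 0.0404). For Asns and Fgf21 the full-dose level was called lower in Fah-/- p53-/- livers, and the levels without NTBC were not called different between the genotypes. Fitted alone, the Asns groups without NTBC were called different (-1.33, adjusted p = 0.00750, limma). The full-dose call of Fgf21 was lost in the alternatives named above. Which dose carries the difference between the changes was not tested. The difference between the 2 changes of Asns was called in every one of the 16 fits that left out 1 array, while those for Fgf21 and Trib3 were lost in 9 and 11 of the 16. None of the 3 was called with normexp. For the reduced dose by limma 0 of the 10 genes were called, with 10.4% of all features called, 6.74% higher and 3.64% lower. The median of the 10 was -0.38, beside 0.03 over all. An unadjusted p under 0.05 was reached by 1 of the 10, and no share of all features at that threshold is given here. Without replicate 2 of the reduced-dose Fah-/- group 6.89% of all features were called.

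The wider ATF4 programme was followed in 53 other genes, of which 48 were measured. Without NTBC relative to full, 28 rose and 11 fell in Fah-/- p53-/- livers and 22 rose and 14 fell in Fah-/- livers, with medians of 0.50 and 0.37. At the reduced dose 12 rose and 7 fell in Fah-/- p53-/- livers and 15 rose and 7 fell in Fah-/- livers, with medians of 0.10 and 0.08. Over all features 29.6 and 29.3% were higher and 40.1 and 41.6% lower on withdrawal, and 20.3 and 17.4% higher and 19.5 and 22.3% lower at the reduced dose. With p53 loss 1 of the 48 was higher and 1 lower without, 3 higher and 14 lower with reduced, and 5 higher and 12 lower with full NTBC. The matching shares of all features were 7.65% higher and 6.6% lower without, 9.85 and 5.8% with reduced, and 6.34 and 7.59% with full NTBC.

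The amino acid transporters had the largest share of rises among the 5 lists on withdrawal in both genotypes. Of 9, 9 rose without NTBC in Fah-/- p53-/- livers and 7 in Fah-/- livers, beside 29.6 and 29.3% of all features higher, and 0 fell. Slc7a11, the cystine importer, was at least 169-fold higher in Fah-/- p53-/- and at least 377-fold higher in Fah-/- livers, where it was not well above background on full NTBC in either genotype. Slc1a4 and Slc1a5, importers of small neutral amino acids, rose by 4.32 and 2.63 in Fah-/- p53-/- livers and by 5.31 and 3.12 in Fah-/- livers. At the reduced dose 4 rose and 0 fell in Fah-/- p53-/- livers and 6 rose and 1 fell in Fah-/- livers, beside 20.3 and 17.4% of all features higher, and Slc7a11 was at least 5.79-fold and at least 20.0-fold higher. With normexp the rises at the reduced dose dwindled to 1 with 2 falls in Fah-/- p53-/- livers and to 2 in Fah-/- livers, while withdrawal still gave 7 and 5.

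Genes of amino acid and one-carbon synthesis split. Of 8 measured, 4 rose and 3 fell without NTBC in Fah-/- p53-/- livers and 5 rose and 2 fell in Fah-/- livers. Among all features 29.6 and 29.3% were higher and 40.1 and 41.6% lower. Psph, the phosphatase that completes serine synthesis after Phgdh and Psat1, rose by 3.16 ± 0.19 (adjusted p = 1.06e-12) and 3.00 ± 0.19 (adjusted p = 2.80e-12), and was also called at the reduced dose, with 1.54 and 1.18. All 3 enzymes of the serine branch rose on withdrawal in both genotypes. Got1, the cytosolic aspartate aminotransferase, changed by -2.21 in Fah-/- p53-/- livers and by -2.54 in Fah-/- livers, both called. Mthfd2, a mitochondrial folate enzyme, rose by 2.40 and 1.37, and with normexp by 0.02 and 0.15, not called.

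The aminoacyl-tRNA synthetases, which charge tRNAs with amino acids, did not share a direction on withdrawal, where 29.6 and 29.3% of all features were higher and 40.1 and 41.6% lower. Of 12 synthetases measured, 5 rose and 4 fell in Fah-/- p53-/- livers and 2 rose and 6 fell in Fah-/- livers, with Gars at 1.63 and 1.23 and Aars at -1.04 and -1.40. With loss of p53 they were lower where NTBC was given: 9 of 12 fell and 0 rose at reduced NTBC, beside 5.8% of all features lower and 9.85% higher, and 6 fell and 0 rose at full NTBC, beside 7.59% lower and 6.34% higher, with medians of -0.46 and -0.37. Without NTBC their differences ran from -0.49 to 0.25, with adjusted p of 0.0673 or more by limma. Cars was the lowest at the reduced dose, at -1.03 ± 0.18 (adjusted p = 0.000465), and Tars at full NTBC, at -0.69 ± 0.11 (adjusted p = 0.000187). Under the other scalings the falls at full NTBC numbered 5 to 8, and at reduced NTBC 6 and 7 with quantile normalization and the deposited table and 1 with normexp. Asns fell in the same 2 comparisons. Other genes of the ATF4 lists were higher there: Vldlr, a lipoprotein receptor, by 1.90 on reduced (adjusted p = 0.00113) and 4.19 on full NTBC (adjusted p = 2.36e-08), Slc7a3, a cationic amino acid transporter, at least 3.34-fold on reduced NTBC, and Slc1a5, Slc7a5, Pck2 and Gpt2 by 0.48 to 0.90 on full NTBC.

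Of 12 upstream kinases, ATF4 partners and feedback genes, 6 rose and 2 fell in Fah-/- p53-/- livers without NTBC and 4 rose and 4 fell in Fah-/- livers. Among all features 29.6 and 29.3% were higher and 40.1 and 41.6% lower. Eif2ak3, which encodes the endoplasmic reticulum kinase PERK, rose by 1.32 and 1.14, and Eif2s1, which encodes eIF2alpha, by 1.30 and 0.95. Atf4 mRNA itself was at 1.93 ± 0.17 without, 2.24 ± 0.16 with reduced and 1.82 ± 0.07 with full NTBC in Fah-/- p53-/- livers, and at 1.86 ± 0.20, 2.54 ± 0.21 and 2.33 ± 0.26 in Fah-/- livers (SD, n = 4 each). In both genotypes its mean was highest at the reduced dose. Atf4 was lower on withdrawal in Fah-/- livers (-0.47, adjusted p = 0.00319) and with p53 loss on full NTBC (-0.52, adjusted p = 0.0109). Other scalings are not given for these changes, and the gene was singled out after its values were seen. ATF4 protein and eIF2alpha phosphorylation were not measured by these arrays.

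A further 7 measured ATF4 response genes gave 4 rises and 2 falls on withdrawal in each genotype. For this list and the 2 that follow, the shares of all features on withdrawal were 29.6 and 29.3% higher and 40.1 and 41.6% lower. Ero1a, an oxidase of the endoplasmic reticulum, rose by 2.13 and 3.21, and Herpud1, a part of its protein disposal machinery, changed by -1.95 and -2.06. For contrast, of 14 genes of the ATF6 and XBP1 branch of the unfolded protein response 2 rose and 5 fell on withdrawal in each genotype, with medians of -0.22 and -0.20; quantile normalization turned this to 6 rises and 2 falls in Fah-/- p53-/- and 6 rises and 1 fall in Fah-/- livers. Among 10 targets of PPARA, the fasting regulator that also drives Fgf21 in hepatocytes, 4 rose and 4 fell in Fah-/- p53-/- livers and 5 rose and 3 fell in Fah-/- livers. Pdk4, a kinase that restrains pyruvate oxidation, rose by 5.56 in Fah-/- p53-/- livers and by 3.44 in Fah-/- livers. With p53 loss 6 of these 10 were higher without, 3 with reduced and 3 with full NTBC, beside 7.65, 9.85 and 6.34% of all features, and 0 were lower. Only without NTBC did the 2 genotypes differ in sex pattern, so sex and p53 loss cannot be told apart in that count.

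**Figure D4:**
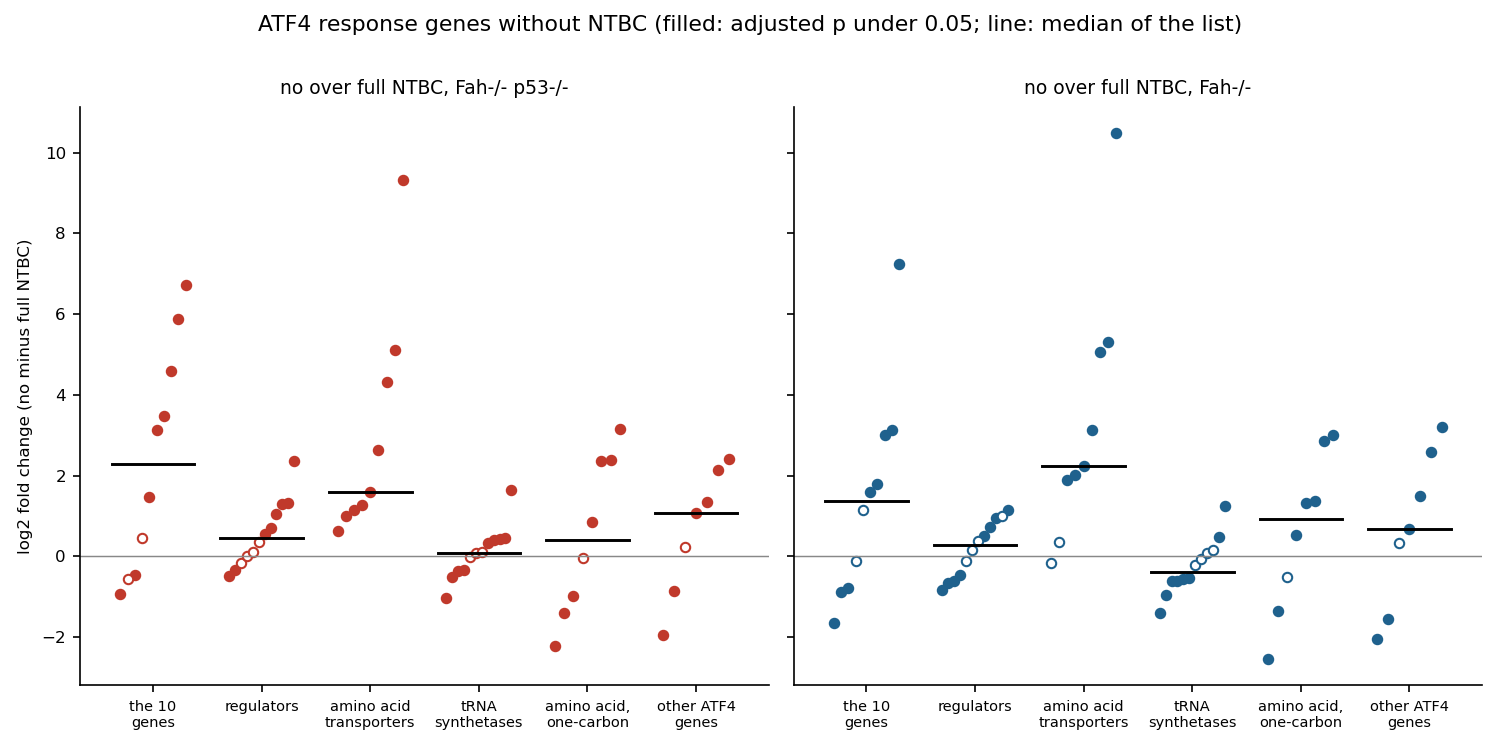
Log2 change without NTBC relative to full of the 10 genes and of 5 lists of other ATF4 response genes, with Fah-/- p53-/- livers left and Fah-/- livers right; each point is a gene, filled where called, and the line is the median of the list. The points of Slc7a11, at 9.33 and 10.48, are fitted values against signal not well above background, for which the text gives the bounds, and the synthetases have medians of 0.09 and -0.38.

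Over the 45 pairs of genes the correlation of deviations from the group means, across 28 arrays that share chips, scaling and 7 fitted means, had a median of 0.20 and was positive in 33 pairs, over 0.5 in 7 and under -0.5 in 0. Asns and Psat1 had the highest (0.74), then Psat1 and Phgdh (0.66). In Fah-/- p53-/- livers on reduced NTBC, replicate 2 was the highest of its 4 arrays for 8 of the 10 genes, while it was so for 26.4% of all features. In Fah-/- livers on reduced NTBC, replicate 2 was the lowest for 9 of the 10 genes and for 23.9% of all features, and replicate 1 the highest for 7 and for 23.2%. These were the largest such counts among the 28 arrays and were picked for that, and the groups at the other doses did not show them. On replicate 2 of the reduced-dose Fah-/- group the means of all 5 lists of other ATF4 genes were also the lowest of the 4 arrays.

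**Figure D5:**
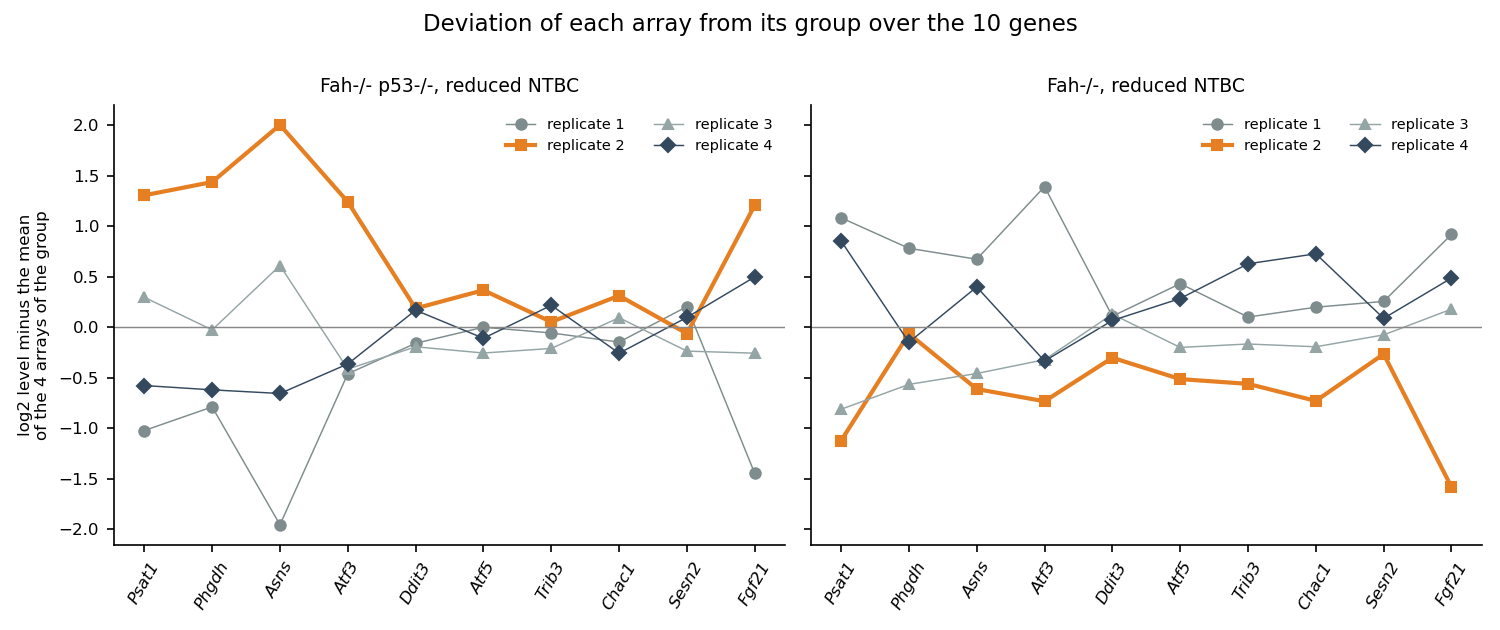
Level of each of the 10 genes on each array of the 2 reduced-NTBC groups, as the log2 level minus the mean of the group's 4 arrays, with Fah-/- p53-/- livers left and Fah-/- livers right; lines join the genes of 1 array, and replicate 2 is in orange. Replicate 2 lies above 0 for 9 genes on the left and below 0 for all 10 on the right.

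Over the 28 arrays the levels most like those of Psat1 were of Uap1l1, Tpm1 and Stk10 (Pearson r of 0.97 each), and the level most like that of Atf3 was of Tnfrsf12a (0.94), of Ddit3 Lonrf3 (0.94), of Phgdh Gdpd1 (0.94) and of Fgf21 Ddias (0.92). Asns was most like Zfp750 (0.89), and Atf5 most like Aars (0.89). The patterns of Trib3 and Chac1 had weaker partners, Bach2 (0.79) and Map3k15 (0.80), and Atf4 was among the 3 features most like Trib3 (0.72). These values describe 28 arrays that share dose groups and carry no test.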

How the data were processed

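Liver RNA (0.1 ug, Cy3-labelled) of 28 mouse samples was hybridised to single-colour Agilent arrays, 4 for each of 7 groups taken from the sample labels. Per the file headers, the authors' Feature Extraction 10.7.3.1 made the deposited intensity values, background-subtracted signal in arbitrary units with no scaling between arrays, on a design annotated to mm9; the submitters' processing notes name version 10.5. A deposited value table of log2 values, the making of which is not described further in the labels, was used as an alternative. Its array medians were 6.89 to 6.91, and its slope on the log2 processed signal was 0.487 to 0.568 over all probes and 0.889 to 1.05 above the 75th percentile. Its direction is that of the signal, and its background treatment and centring stay unknown.

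From these, log2(signal) minus log2 of the array's 75th percentile was computed. The 1639 control spots and 2525 outlying spot values were left out, 27509 of 41174 probes that were well above background on all 4 arrays of a group were kept, and the brightest probe stood for each gene, which left 20303 features. limma 3.58.1 (R 4.3.3) fitted 7 group means over all 28 arrays, with 21 residual degrees of freedom, 13 comparisons and Benjamini-Hochberg adjustment over all features. The procedure was tested on simulated data.

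A bound ("at least") sets the bright group against the lowest signal well above background on each array. The named genes are the 10 genes, up to 4 called genes with the largest change per list and comparison, Fah, Trp53 and Cdkn1a, and the 3 features most alike over arrays. Atf4 was singled out after its values were seen, and 1 gene that the rule names is not reported here. The genes and lists were chosen with earlier results of these data known, and so support nothing on their own. Alternatives were normexp background correction (offset 50, on median spot and background signals, since mean signals were not used here), quantile normalization, the deposited table, other probe filters and summaries, groups fitted alone, slides, replicate numbers and single arrays left out. The number of arrays limits the precision.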

Additional observations from a re-analysis of the deposited data

Results flagged for a closer look

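Of 70 gene-and-group sets of 4 arrays, 5 held 1 array set apart from the other 3 by more than Dixon's critical value, where chance gives about 1 in 20. Atf3 stood at 0.76 on replicate 2 of the Fah-/- p53-/- group on reduced NTBC, above the other 3, and at 0.16 on replicate 1 of the Fah-/- p53-/- group without NTBC, below the other 3. Sesn2 was at 1.88 on that same array, above the others. Ddit3 was at -0.36 on replicate 2 of the Fah-/- group on reduced NTBC, and Phgdh at -2.76 on replicate 4 of the Fah-/- group on full NTBC, each below the others.

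The response to withdrawal of NTBC differed between Fah-/- p53-/- and Fah-/- livers, by limma's test of the difference between the 2 changes, for Asns (3.46), Fgf21 (2.75) and Trib3 (1.25), each higher in Fah-/- p53-/- livers. The Fah-/- p53-/- arrays without NTBC carried the female pattern and the other 3 groups of this test the male one, so sex and the difference cannot be told apart.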

How the results depend on the processing

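Over all alternatives 2578 of 2727 single-gene values kept their direction and side of the threshold, 114 lost a call, 34 gained one and 1 reversed; of the 52 calls, 35 held in every alternative other than a required 2-fold change. The reversal was Atf5 at reduced against full NTBC in Fah-/- p53-/- livers, 0.15 with normexp. Counts of called genes among the 10 moved as follows, and where no construction shows it, the cause was not tested. For the p53 dependence of withdrawal (3) the count was 0 with normexp, 0 with a 2-fold minimum and 1 when dim probes were kept. For p53 loss on full NTBC (2) it was 1 in the deposited table, 1 with the groups fitted alone and 1 with the 2-fold minimum. For p53 loss without NTBC (1) it was 2 with the groups alone, 2 without the 3 farthest arrays, which were chosen after seeing the data, and 0 with the 2-fold minimum. For p21 loss (0) it was 1 in the deposited table. For p53 against p21 loss (1) it was 2 in the deposited table, 0 with the 2-fold minimum and 0 within 1 slide. The 2-fold minimum, a stricter rule by construction, also gave 1 and 2 at reduced against full NTBC (Fah-/- p53-/- and Fah-/-), 5 and 4 at no against full, 4 and 1 at no against reduced, and 0 for p53 loss on reduced NTBC. Leaving out 1 array at a time gave 3 to 5 in both genotypes at reduced against full, 8 to 9 (Fah-/- p53-/-) and 6 to 8 (Fah-/-) at no against full, 7 and 9 in every fit at no against reduced, 1 to 2, 3 to 5 and 1 to 2 for p53 loss without, with reduced and with full NTBC, 0 in every fit for p21 loss, 1 to 2 for p53 against p21 loss, and 0 in every fit and 1 to 3 for the p53 dependence at reduced and no NTBC. Replicate numbers do not pair the samples, since no comparison had all its correlations over 0.1; with the replicate number as a block the counts were 4, 4, 8, 8, 7, 9, 1, 5, 2, 0, 1, 0 and 3 in the order of reduced against full, no against full and no against reduced (Fah-/- p53-/- and Fah-/- each), p53 loss without, with reduced and with full NTBC, p21 loss, p53 against p21 loss, and the p53 dependence at reduced and no NTBC. Over all features, normexp moved the median change by -0.37 to 0.24, and quantile normalization and the deposited table by at most 0.17, and the count called changed by more than 1.5 times under normexp in 9 of 13 comparisons. Under normexp the share of called features that were higher fell to 22.4% for p53 loss on full NTBC and 24.6% at reduced against full NTBC in Fah-/- p53-/- livers, against 45.5% and 50.9% without it. It was 75.6% of 78 calls for the p53 dependence at reduced NTBC, and moved by -11.5 points for p53 loss on reduced NTBC and by -10.3 and -10.5 points at no against full NTBC in Fah-/- p53-/- and Fah-/- livers, and in the deposited table by 10.8 points at no against reduced NTBC in Fah-/- p53-/- livers.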
